A study of Mus musculus with 2 samples.

Results

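The clustered histone genes are the genes whose symbol starts with Hist1h, Hist2h, Hist3h or Hist4h, and 67 of the 41605 genes counted in this series carried such a symbol. By histone type they were 6 H1, 18 H2A, 18 H2B, 12 H3 and 13 H4 genes. Of these, 54 lie on chromosome 13, 10 on chromosome 3, 2 on chromosome 11 and 1 on chromosome 6. The group was chosen because Hist1h1d was among the genes that differed most between the microglia of the 2 libraries, so the levels of the members in microglia are given as a description. The study counted RNA in single cells of the hippocampus of adult male wild-type C57BL/6 mice, 10 weeks old, with the 10x Genomics 3' kit, version 3. Each of its 2 libraries came from the pooled hippocampal cells of 3 mice, and no mouse was counted separately. The cells were freed either with an enzyme for 30 min at 37 °C or mechanically at 4 °C, and were then cleared of debris and myelin on a Percoll gradient. No label ties either treatment to a library, and so they are called library 1 and library 2 after their titles and were assigned to no group.

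Histone proteins package DNA. A pair each of H2A, H2B, H3 and H4 forms the nucleosome core, and the linker histone H1 binds where DNA enters and leaves it. Most clustered histone genes are expressed during DNA replication, and their messenger RNAs end in a conserved stem-loop in place of a poly(A) tail. The 3' kit primes on poly(A), and so it captures chiefly those histone transcripts that run on past the stem-loop and are polyadenylated, as some are in cells that no longer divide. Adult microglia, the resident macrophages of the brain, divide rarely.

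The stem-loop is shown for the members on which the results turn, because it marks where the usual end of the transcript lies. It was searched in the longest GENCODE M21 transcript of each gene as 16 bases: an arm that starts with GG and ends with CT, a loop of 4 bases that starts with T, and the reverse complement of the arm. It was found in 45 of the 67 members, against 0.0715% of 58725 other protein-coding transcripts, and the sequence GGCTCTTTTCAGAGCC was the most frequent, with 25 members. Capitals mark the stem-loop, on the transcript strand.
Hist1h1c: aaaaGGCTCTTTTCAGAGCCaccact
Hist1h1d: aaacGGCTCTTTTCAGAGCCacccac
Hist1h1e: caaaGGCTCTTTTCAGAGCCacccac
Hist3h2a: caaaGGCTCTTTTCAGAGCCacccac
Hist1h2be: caaaGGCTCTTTTCAGAGCCacccaa
Hist3h2ba: caaaGGCTCTTTTCAGAGCCaccttc
Hist1h2ap: aaaaGGCTCTTTTCAGAGCCatc
Hist1h4d: caaaGGCCCTTTTCAGGGCCactacc
Hist1h4i: taaaGGCCCTTTTTAGGGCCaccaca
Hist2h4: taacGGCCCTTTTTAGGGCCaaccac
The annotated transcript ran on for 840 bases past the stem-loop in Hist1h1c, 4884 in Hist1h1d, 1153 in Hist1h1e and 1643 in Hist3h2a. It ended 3 bases after the stem-loop in Hist1h2ap. No such sequence was found in the longest transcript of Hist1h2bc, the H2B gene with the most UMIs.

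The 3 linker genes with the most UMIs in microglia over both libraries, Hist1h1c, Hist1h1d and Hist1h1e, had like sequences before their start sites. Such sequences were not particular to them, as linker genes that were low in microglia had them too. The 130 bases before each start are shown, 5′ to 3′ on the gene's strand, from RefSeq on build GRCm38.p6. Capitals mark AAACACA (known as the H1 box), CCAAT and TATAAA, each searched on both strands with no overlap between them in these windows. The windows are chr13:23738677-23738806 on the plus strand for Hist1h1c, chr13:23554902-23555031 on the plus strand for Hist1h1d and chr13:23622559-23622688 on the minus strand for Hist1h1e. The Hist1h1d window lies inside the GENCODE gene model given below, which starts upstream of the RefSeq start.
Hist1h1c: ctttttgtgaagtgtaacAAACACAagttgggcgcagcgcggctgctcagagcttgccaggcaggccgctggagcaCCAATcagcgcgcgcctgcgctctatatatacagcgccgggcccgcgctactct
Hist1h1d: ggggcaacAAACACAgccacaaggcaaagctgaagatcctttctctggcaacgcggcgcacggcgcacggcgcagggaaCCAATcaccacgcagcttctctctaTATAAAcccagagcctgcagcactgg
Hist1h1e: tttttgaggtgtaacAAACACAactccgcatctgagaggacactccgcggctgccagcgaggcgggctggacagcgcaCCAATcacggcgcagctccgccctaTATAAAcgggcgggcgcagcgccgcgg
Over windows of 300 bases, of which 250 lie before the start, AAACACA stood in 5 of 6 H1 members, 2 of 17 H2A, 2 of 16 H2B, 0 of 10 H3 and 0 of 12 H4 members, and in 7.14% of all 27025 RefSeq promoters. CCAAT stood in each of the 6 H1, 17 H2A, 16 H2B and 10 H3 members that had a promoter entry, in 3 of 12 H4 members and in 37.9% of all promoters. A match is a description of letters and not a binding site.

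In both libraries the deposited counts gave raw UMIs (unique molecular identifiers, 1 per captured molecule). Library 1 held 12306 barcodes and 18783691 UMIs, and library 2 held 6448 barcodes and 29356086 UMIs. Cells with at least 1000 UMIs, 500 genes and at most 10% mitochondrial UMIs were gated into classes by marker genes, which left 6784 cells in library 1 and 2071 in library 2, with 19 barcode sequences found in both libraries. Microglia numbered 834 in library 1 and 1593 in library 2, and their medians were 2294 and 6495 UMIs per cell. Their 12 markers summed to 53117 and 54128 CPM (UMIs per 1000000 UMIs of the class), all 12 detected in each library. Neuron markers summed to 2394 CPM in the microglia of library 1 and 332 CPM in those of library 2, with all 14 detected in each, and their part in the values below was not tested. The other classes of at least 50 cells were 5469 neurons, 311 astrocytes and 117 oligodendrocytes in library 1, and 51 oligodendrocytes, 180 endothelial cells and 81 mural cells in library 2. Neither library has a replicate, and no test was made. The 95% intervals in brackets, exact Poisson for levels and exact binomial for shares, cover counting error only.

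Summed over the 67 members, microglia of library 1 held 543 histone UMIs, or 268 CPM (246 to 292). In the same library neurons held 148 CPM (140 to 155), astrocytes 367 CPM (310 to 431) and oligodendrocytes 384 CPM (316 to 463). Microglia thus lay above neurons, by 1.82 times (1.65 to 2.01), and below both other glial classes. In library 2, microglia held 12660 histone UMIs, or 1176 CPM (1155 to 1196). There, oligodendrocytes held 434 CPM (379 to 495), endothelial cells 333 CPM (313 to 355) and mural cells 341 CPM (285 to 405). The order of microglia and oligodendrocytes was the opposite of that in library 1: the ratio of microglia to oligodendrocytes, 0.698 (0.568 to 0.865) in library 1, stood at 2.71 (2.37 to 3.11) in library 2. With cells of at least 500 UMIs and 250 genes the ratio in library 1 was 1.09 (0.934 to 1.27), in cells of 1000 to 3000 UMIs it was 1.13 (0.751 to 1.76), and without Hist1h2bc 0.924 (0.711 to 1.22). The intervals of astrocytes and oligodendrocytes overlapped in library 1, as did those of endothelial and mural cells in library 2.

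**Figure D1:**
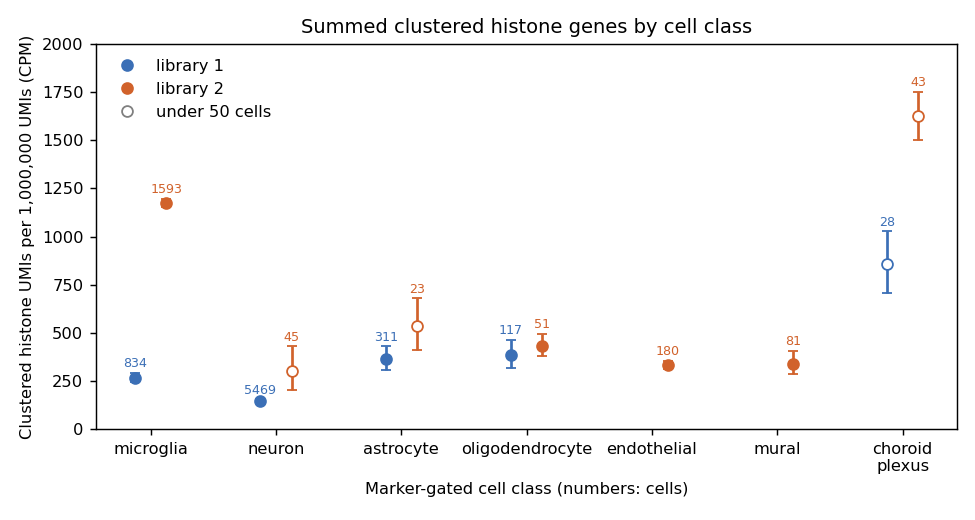
Summed CPM of the 67 clustered histone genes by cell class (horizontal axis) in library 1 (blue) and library 2 (orange), with exact Poisson 95% intervals; the numbers above the points are cells, and open points are classes of under 50 cells. Microglia stand at 268 CPM in library 1 and 1176 CPM in library 2, whereas oligodendrocytes stand at 384 and 434 CPM.

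A few members held most of the UMIs. In microglia, 27 of the 67 members had a UMI in library 1 and 54 in library 2, and 40 and 13 members were at 0. The 4 members with the most UMIs held 71.3% of the histone UMIs of microglia in library 1 and 71.4% in library 2. Members with at least 10 UMIs numbered 9 in library 1 and 37 in library 2. Each UMI counts the 3' end of 1 molecule, so the levels below are not divided by transcript length. Members whose annotated transcript ran more than 100 bases past the stem-loop, 23 in all, held 73.1% and 75.4% of the histone UMIs of microglia. The 22 members that ended within 100 bases of it held 2.95% and 6.11%, and the 22 with no stem-loop found held 23.9% and 18.5%. Hist1h2bc alone held 112 of the 130 UMIs of this last group in library 1 and 2139 of the 2336 in library 2. Only the longest transcript of each gene was searched. In library 2 the members that ended within 100 bases summed to 71.8 CPM in microglia, and in library 1 to 7.91 CPM.

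With Hist1h1d counted, the linker histone genes made up most of the histone UMIs of microglia in library 2. Hist1h1d, by which the group was chosen, alone held 12.3% of these UMIs, beside 27.8% for Hist1h1c and 14.4% for Hist1h1e. The H1 values of microglia below include Hist1h1d. In library 1, H1 summed to 65.2 CPM (54.6 to 77.3), which was 24.3% (20.8 to 28.1) of the histone UMIs. In library 2 it summed to 645 CPM (630 to 661) and 54.9% (54.0 to 55.8). The share of H1 in the other classes of library 1 was 7.76% (6.49 to 9.2) in neurons, 18.1% (12.3 to 25.3) in astrocytes and 10.9% (5.77 to 18.3) in oligodendrocytes. In those of library 2 it was 9.42% (5.92 to 14.0) in oligodendrocytes, 27.1% (24.3 to 30.0) in endothelial cells and 28.2% (20.7 to 36.8) in mural cells. The interval of microglia lay above that of every other class compared, except astrocytes in library 1, whose interval overlapped.

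Hist1h1c (chr13:23738808-23740367, plus strand, GENCODE M21) was the linker gene with the highest level. It held 50.4 CPM in the microglia of library 1 (102 UMIs) and 327 CPM in those of library 2 (3518 UMIs). Hist1h1e (chr13:23620629-23622558, minus strand) held 9.39 CPM (19 UMIs) and 169 CPM (1822 UMIs). Hist1h1d (chr13:23553262-23560686, plus strand) held 1.48 CPM in library 1 (0.306 to 4.33, from 3 UMIs) and 145 CPM in library 2 (138 to 152, from 1560 UMIs). The intervals of the 2 libraries did not overlap for Hist1h1c and Hist1h1e. Those of Hist1h1d did not overlap either, but the choice of the group by this gene fixed that in advance. The other linker members were low: Hist1h1a, Hist1h1b and Hist1h1t together with the 3 genes above make up the type, and none of these 3 was above 3.95 CPM in the microglia of either library.

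In library 2, Hist1h1d was lower in every other class compared than in microglia. Its count in library 1 was 6 UMIs in the 5469 neurons, and 0 in the astrocytes and 0 in the oligodendrocytes, with upper bounds of 9.08 CPM and 12.9 CPM. In library 2 it was 6.55 CPM in endothelial cells (19 UMIs), and mural cells held 1 UMI and oligodendrocytes 2 UMIs of it. The few choroid plexus cells held it at 7.33 CPM in library 1 (1 UMI) and 9.71 CPM in library 2 (4 UMIs). Hist1h1e was 29.3 CPM in endothelial cells and 44.3 CPM in mural cells of library 2. Hist1h1c was 61.6 CPM in astrocytes of library 1 (39.8 to 90.9), which overlapped the microglia of that library (41.1 to 61.2). It was 53.8 CPM in endothelial cells and 49.5 CPM in mural cells of library 2, well below the microglia of library 2.

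Of the core types, H2A stood closest in the 2 libraries. Its sum in microglia was 85.0 CPM (72.8 to 98.7) for library 1, against 145 CPM (138 to 153) for library 2. Hist3h2a (chr11:58954685-58956830, plus strand), an H2A gene outside the main cluster, held 71.6 CPM (145 UMIs) in library 1 and 74.0 CPM (797 UMIs) in library 2. These intervals overlapped. Hist3h2a had the highest level of the members in the microglia of library 1, with an interval that overlapped that of Hist1h2bc, and the fifth in those of library 2. Hist1h2ap, whose transcript ends at the stem-loop, held 2.47 CPM (5 UMIs) and 23.4 CPM (252 UMIs). Of the stretches of 90 bases in Hist1h2ap, 92.4% also occur in other H2A members, so its level is uncertain.

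H2B was mainly Hist1h2bc (chr13:23684199-23692908, plus strand). This gene held 55.3 CPM (112 UMIs) in the microglia of library 1 and 199 CPM (2139 UMIs) in those of library 2. It was also the leading member in the oligodendrocytes of both libraries, at 154 CPM (112 to 206) and 224 CPM (185 to 269). In oligodendrocytes H2B genes made up 70% (60.5 to 78.4) of the histone UMIs in library 1 and 68.6% (62.1 to 74.6) in library 2, against 31.5% and 23.2% in microglia. In endothelial cells Hist1h2bc was at 92.7 CPM, above Hist1h1c at 53.8 CPM and Hist3h2a at 37.6 CPM. In mural cells it was at 67.7 CPM, close to Hist3h2a at 65.1 CPM. In astrocytes of library 1, where Hist1h1c had the highest level, Hist1h2bc was at 49.2 CPM and Hist3h2a at 41.9 CPM.

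Hist3h2ba (chr11:58948920-58949533, plus strand), the H2B gene next to Hist3h2a, stood higher in the microglia of library 1, at 13.8 CPM (28 UMIs), than in those of library 2, at 6.13 CPM (66 UMIs), with intervals that did not overlap. It was 83.9 CPM in the oligodendrocytes of library 1 and 64.2 CPM in those of library 2, each above the microglia of its library. In neurons of library 1, Hist3h2a at 40.6 CPM and Hist3h2ba at 40.0 CPM together with Hist2h4, an H4 gene, at 13.6 CPM were the leading members, and both Hist3h genes made up 54.6% of the histone UMIs. Hist1h2be held 7.91 CPM and 34.0 CPM in the microglia of libraries 1 and 2. Its gene model overlaps that of Hist1h1e on the same strand, so UMIs of the pair may be divided between them or left out by the counting.

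H3 and H4 members were the least abundant in microglia. The sum of the H3 genes was 5.93 CPM (3.06 to 10.4) in library 1, against 21.5 CPM (18.8 to 24.4) in library 2. For H4 the sums were 27.7 CPM (20.9 to 35.9) and 90.6 CPM (85.0 to 96.5). The H4 genes with the highest level in library 2 were Hist1h4d, at 7.91 CPM (16 UMIs) and 35.8 CPM (385 UMIs), and Hist1h4i, at 9.39 CPM (19 UMIs) and 29.4 CPM (317 UMIs), the first value being that of library 1. Hist2h4 was at 8.40 CPM (17 UMIs) in library 1 and 4.46 CPM (48 UMIs) in library 2. Hist1h4d was at 33.1 CPM in endothelial cells of library 2, so its level in microglia was not apart from that class. Over all 67 members, 58 share at least 1 stretch of 90 bases with another member and 26 share over 50% of theirs, and reads from such stretches cannot be placed.

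**Figure D2:**
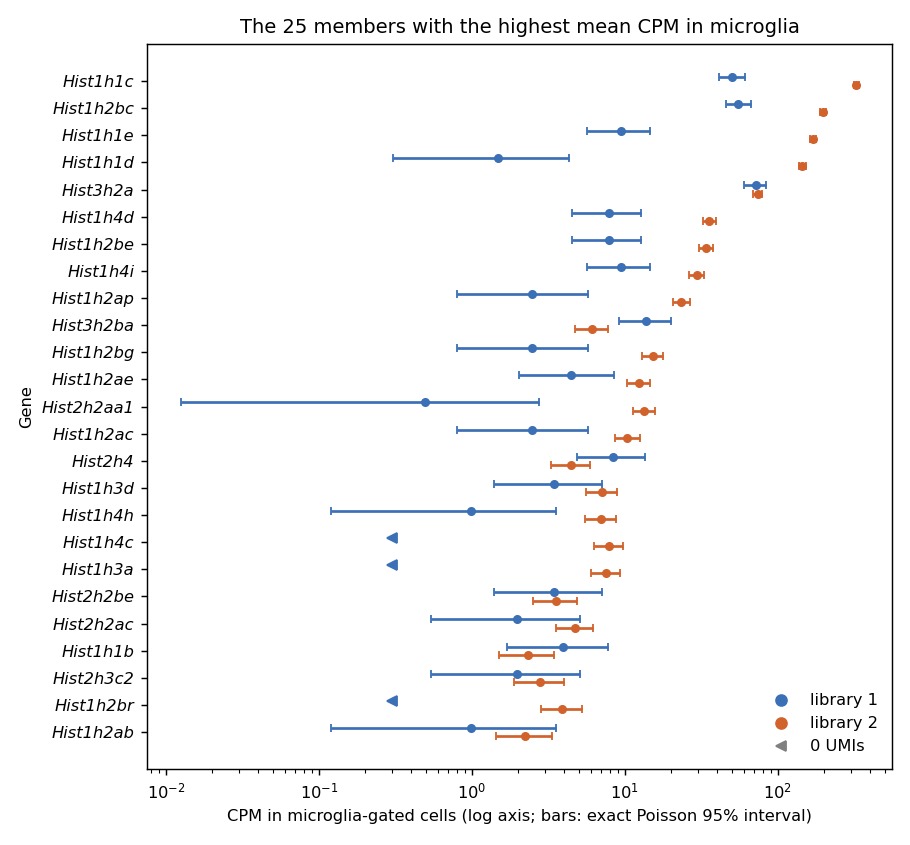
CPM in microglia (logarithmic horizontal axis) of the 25 members with the highest mean over both libraries, with exact Poisson 95% intervals; library 1 is blue, library 2 orange, and triangles mark 0 UMIs. Hist1h1d lies at 1.48 and 145 CPM, Hist3h2a at 71.6 and 74.0 CPM, and Hist3h2ba at 13.8 and 6.13 CPM.

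**Figure D3:**
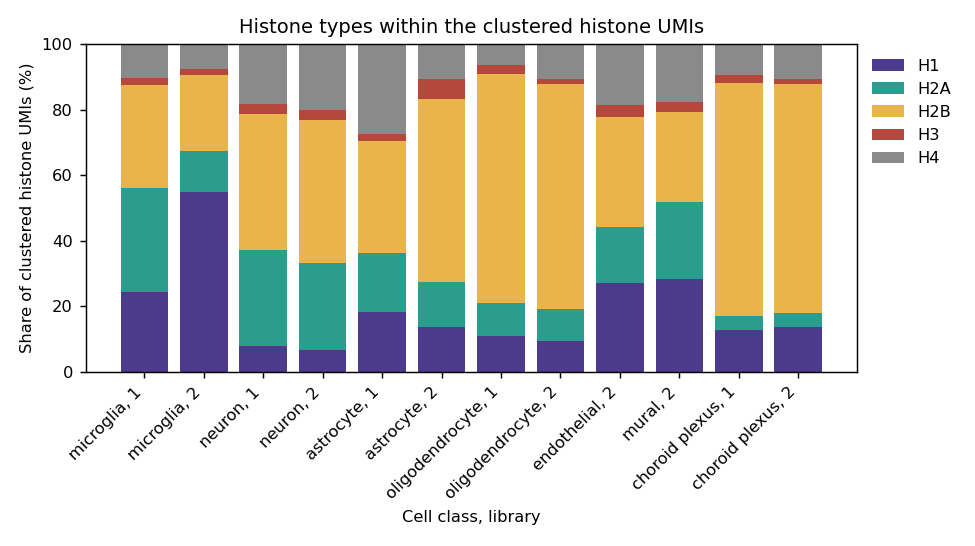
Share of each histone type (vertical axis, percent) in the clustered histone UMIs of each class with at least 20 cells, named with its library number. H1 makes up 24.3% in microglia of library 1 and 54.9% in those of library 2, and H2B 70% and 68.6% in oligodendrocytes.

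Within each library, a member was called for a class when its CPM was at least 4 times, or at most 1/4, that in every other class of at least 50 cells, over genes with at least 20 UMIs in these classes. A class at 0 counted as 3 UMIs. In library 1, 13 members passed the limit of 20 UMIs. None was called higher in microglia, against 3.58% of 16183 genes, nor in neurons (4.4%), astrocytes (1.94%) or oligodendrocytes (2.22%). With cells of at least 2000 UMIs, 2 members were called higher in microglia, but neurons were then the only other class of at least 50 cells. Hist1h1e and Hist1h2bc were called lower in neurons, against 1.19% of genes, and none was called lower in microglia (1.58%), astrocytes (0.463%) or oligodendrocytes (0.822%). Microglia had the highest level for 1 of the 13, Hist3h2a, against 23.3% of genes. That number was 7 with cells of at least 2000 UMIs, again against neurons alone, and 2 or 3 under 5 of the other settings.

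In library 2, 33 members passed the limit, many of them through the UMIs of microglia alone, so their counts support nothing about microglia. Hist1h1c, Hist1h1d and Hist1h2be were called higher in microglia, against 3.84% of 13912 genes. With a mitochondrial limit of 20% 6 members were called, and 13 with a stricter gate that left only endothelial cells beside microglia. Hist3h2ba was called higher in oligodendrocytes (4.11%), Hist2h4 higher in mural cells (3.28%, from 7 UMIs) and none higher in endothelial cells (2.85%). No member was called lower in microglia (2.94%), oligodendrocytes (2.98%), endothelial cells (1.21%) or mural cells (0.295%). Microglia had the highest level for 24 of the 33, against 26.7% of genes, and for 15 members when 50 UMIs were required. Choroid plexus cells, with under 50 cells, were not among the classes compared, and in library 2 they held Hist1h1c at 187 CPM and Hist1h2be at 34.0 CPM. The 24 include Hist3h2a, at 74.0 CPM in microglia and 65.1 CPM in mural cells.

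Side by side in microglia, 33 members had at least 20 UMIs over both libraries. Of these, 12 were at least 4-fold higher in library 2, against 1.88% of 13412 genes, and 0 were at least 4-fold lower, against 10.3%. The group was chosen by this contrast, and nothing is read from these counts. The 12 were the linker genes Hist1h1c, Hist1h1d and Hist1h1e, the H2A genes Hist1h2ac, Hist1h2ap and Hist2h2aa1, the H2B genes Hist1h2be and Hist1h2bg, the H3 gene Hist1h3a, and the H4 genes Hist1h4c, Hist1h4d and Hist1h4h. The contrast also runs across a depth gap, and in microglia of 1000 to 3000 UMIs the summed level of library 2 was 735 CPM (645 to 833).

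The share of cells with a histone UMI was compared after each cell had been thinned to 1000 UMIs. After thinning, 21.1% (18.4 to 24.0) of the microglia of library 1 and 52.5% (50.1 to 55.0) of those of library 2 had a UMI of any member. Before thinning the shares were 43.4% and 90.3%. For Hist1h1d the thinned shares were 0.12% (1 of 834 cells) and 9.1% (7.73 to 10.6). No class in these libraries is known to lack histone transcripts. In endothelial cells of library 2, with a median of 7779 UMIs, a UMI of Hist1h1d was found in 10 of 180 cells (5.56%) before thinning and in 0 of 180 after it (upper bound 2.03%). Before thinning, the shares of microglia were 0.36% and 25.6%. For Hist3h2a the thinned shares of microglia were 6.59% (5.01 to 8.5) and 6.72% (5.54 to 8.06), and their intervals overlapped.

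The histone UMIs were spread over the microglia of library 2 unevenly but widely. The median cell held 4 histone UMIs, the most was 62, and the 10% of cells with the most held 39.3% of the UMIs. The middle 50% of cells ranged from 304 to 1551 CPM. In library 1 the median microglial cell held 0 histone UMIs and the most was 15. In library 2, Hist1h1e had a UMI in 73.3% of the 408 cells with Hist1h1d and in 33.2% of the 1185 cells without, and Hist1h1c in 66.4% and 37.2%. For Hist1h2bc, which is no linker gene, these shares were 63.7% and 41.5%, and for Hist3h2a 36.0% and 35.1%. The cells with Hist1h1d had a median of 7130 UMIs and those without 6334, and the part of depth in these shares was not tested.

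Cells with UMIs of 2 or more of 12 mitosis genes numbered 5 of 834 microglia in library 1 and 10 of 1593 in library 2, and they held 4.97% and 1.28% of the histone UMIs of microglia. In library 1 these 5 cells stood at 1456 CPM and the rest at 257 CPM. In library 2 the 10 cells stood at 1457 CPM and the rest at 1173 CPM. Microglia with UMIs of 2 or more S phase genes numbered 34 in library 1, with 7.73% of the histone UMIs at 387 CPM (279 to 524). In library 2 they numbered 266, which was 16.7% of the cells, with 19.3% of the histone UMIs at 1061 CPM (1019 to 1104). The 733 microglia of library 2 with no UMI of any S phase or mitosis gene stood at 1297 CPM (1263 to 1332), above the 1176 CPM of the whole class. Cells were sorted here without thinning, so a deeper cell is likelier to hold such a UMI. Median depth was 2294 UMIs in the microglia of library 1 and 6495 in those of library 2, and the part of depth in these values was not tested.

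Lists of genes around histone supply were set beside the members. The S phase list (DNA replication genes, led in microglia by Mcm3, Pcna and Tyms) summed to 135 CPM in the microglia of library 1 and 143 CPM in those of library 2, and the mitosis list (led by Top2a, Mki67 and Cdk1) to 57.8 and 41.1 CPM. Histone mRNA processing factors, led by Slbp, which binds the stem-loop, by Srrt and by Casp8ap2, summed to 515 and 457 CPM. Slbp itself was at 95.4 CPM (82.4 to 110) and 73.1 CPM (68.1 to 78.4). Histone chaperones, led by Atrx, Rbbp4 and Ubn1, summed to 1022 and 968 CPM, and polyadenylation factors, led by Papola, Cpsf6 and Pabpn1, to 857 and 748 CPM. Of the tested genes of these 5 lists none differed by 4-fold or more between the microglia of the 2 libraries, in either direction: 14 S phase, 10 mitosis, 12 processing, 18 chaperone and 14 polyadenylation genes. Over all 13412 genes, 1.88% were at least 4-fold higher in library 2 and 10.3% at least 4-fold lower.

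Of the histone genes outside the clusters, most of which are expressed outside S phase too and have poly(A) tails, 10 were tested and 0 differed by 4-fold in either direction. The shares over all genes were 1.88% higher and 10.3% lower in library 2. The list summed to 2093 CPM in the microglia of library 1 and 4189 CPM in those of library 2. H3f3b, an H3.3 gene, was 828 and 2913 CPM, H3f3a, the other H3.3 gene, was 522 and 591 CPM, and H2afz was 328 and 288 CPM. The 2 sums of the list thus differed by about as much as the levels of H3f3b alone.

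Calls between classes within a library follow for these lists, with the share over all genes in brackets. In library 1, of 13 S phase genes Mcm3 was called higher in microglia (3.58%) and lower in neurons (1.19%), and Tyms lower in oligodendrocytes (0.822%). In the same library, of 12 processing factors Lsm10 was called higher in microglia (3.58%), and of 14 polyadenylation factors Cstf2 higher in neurons (4.4%). Of 11 histone genes outside the clusters, H2afv was called lower in neurons (1.19%). In library 2, of 10 mitosis genes Tpx2 was called higher in mural cells (3.28%). No S phase gene, processing factor, chaperone, polyadenylation factor or outside histone gene was called in any class of that library.

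Immediate early genes, which encode transcription factors and regulators induced within minutes of a stimulus, moved with the histone level in library 2. In library 1, Zfp36 and Klf2 were called higher in microglia (3.58% of all genes) and Btg2 lower in oligodendrocytes (0.822%). In library 2, Klf2, Klf4 and Ier3 were called higher in endothelial cells (2.85%), Btg2, Klf2 and Ier3 lower in oligodendrocytes (2.98%) and Fosb lower in mural cells (0.295%). The 16 genes, led by Jun, Junb and Jund, summed to 1376 CPM in the microglia of library 1 and 16488 CPM in those of library 2. Of the 16, 15 were at least 4-fold higher in library 2, against 1.88% of 13412 genes. The microglia of each library were ordered by their thinned immediate early UMIs and divided into 3 equal parts, which are ranges of a score and not cell types. In library 1 the summed histone level was 262, 279 and 264 CPM from the lowest to the highest part, with overlapping intervals. The parts of library 1 were little apart: their thinned immediate early UMIs were 0, 0 to 1 and 1 to 88, with cells tied at the cuts. In library 2 they were 0 to 1, 1 to 14 and 14 to 95. Immediate early levels were 558, 1030 and 2594 CPM in library 1 and 1048, 5470 and 36841 CPM in library 2, so the 2 libraries were not compared over a like range. In library 2 the summed histone level was 523 CPM (498 to 549), 1291 CPM (1253 to 1330) and 1574 CPM (1536 to 1612), a ratio of 3.01 (2.85 to 3.18) between the highest and the lowest part. In cells of 1000 to 3000 UMIs this ratio was 5.37 (3.64 to 8.15). Mitochondrial UMIs were 4.71%, 4.72% and 5.44%, median UMIs per cell 6091, 6001 and 7604, and neuron markers 359, 326 and 317 CPM in these parts, and their part in the result was not tested.

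The types did not move alike across these parts of library 2. H1 was 134, 635 and 1038 CPM from the lowest to the highest part, and H2A was 135, 172 and 132 CPM. H3 was 9.14 CPM (6.12 to 13.1), 21.1 CPM (16.5 to 26.6) and 31.0 CPM (25.9 to 36.8). H2B was 190.4 CPM, 360 CPM (340 to 381) and 266 CPM (250 to 282), so it was highest in the middle part. H4 was 55.5, 104 and 107 CPM. It was higher in the middle than in the lowest part, and the intervals of its middle and highest parts overlapped. Hist1h1d was 24.3, 153 and 229 CPM, Hist1h1e 36.6, 149 and 284 CPM, and Hist1h1c 70.0, 326 and 520 CPM. Hist3h2a was 76.0, 81.4 and 66.7 CPM, and the intervals of its lowest and highest parts overlapped.

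**Figure D4:**
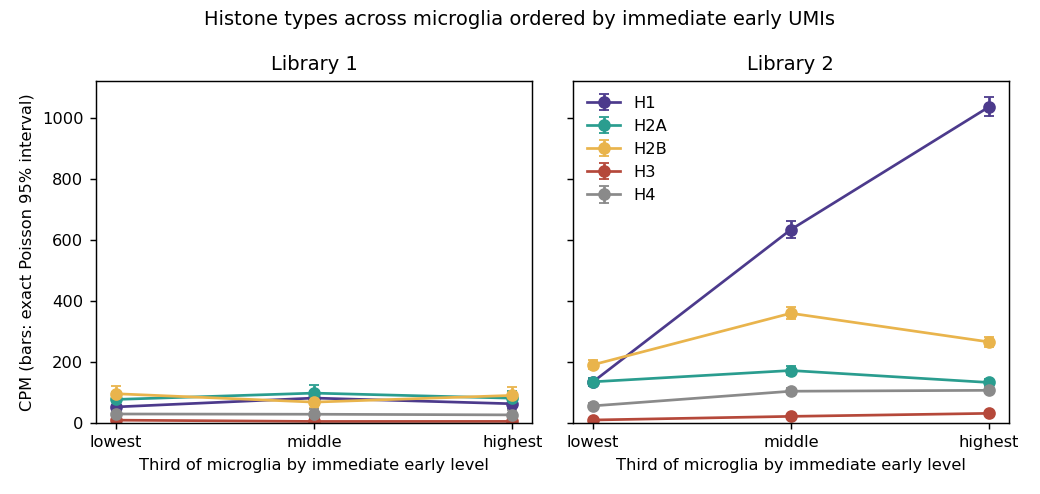
CPM of each histone type in the microglia of library 1 (left) and library 2 (right), in 3 equal parts of the cells ordered by immediate early UMIs, with exact Poisson 95% intervals. H1 goes from 134 to 1038 CPM in library 2, and H2A stands at 135 CPM in the lowest and 132 CPM in the highest part.

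Among the classes of at least 50 cells in library 2, the highest immediate early sum and the highest histone sum fell in different classes. These are sums of whole classes, and cells of classes other than microglia were not ordered by immediate early level. Endothelial cells of library 2 held 18329 CPM of immediate early UMIs, above the microglia of that library, with 333 CPM of histone UMIs and 90.3 CPM of H1. Their immediate early sum includes Klf2, Klf4 and Ier3, which were called higher in that class, and the part of these genes was not tested. Mural cells held 1329 CPM and oligodendrocytes 1526 CPM of immediate early UMIs, with 341 and 434 CPM of histone UMIs.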

How the data were processed

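Per the submitters' processing notes the authors used Cell Ranger 3.0.1 and genome build GRCm38.p5; what was deposited are whole-number counts of UMIs for each gene in each barcode, with no normalization. The rule by which barcodes were chosen, and the gene annotation, were not given in the sources used here. Library 2's files carry another sample number than its title. Cells were kept with at least 1000 UMIs, 500 genes and at most 10% mitochondrial UMIs. A cell entered a class when at least 3 of its markers had a UMI and their sum was at least 2 times that of every other of 15 marker lists, which leaves out mixed cells; no doublet caller was run, and the limits of this gate were set after the cells were seen. Counts were summed per class and library, with exact Poisson and Clopper-Pearson intervals (Python 3.11.15, scipy 1.17.1, numpy 2.4.6, pandas 2.3.3); the scripts were tested on simulated data. Named are Hist1h1d, the 10 members with the highest mean CPM in microglia, the 3 highest with at least 10 UMIs in every other class, members meeting the 4-fold rule, and the 3 highest genes of each other list. Stem-loops and overlaps were read from GENCODE M21 transcripts and promoters from RefSeq, which held 61 of the members. The members and lists were chosen with earlier results of these data known. Alternatives to each filter, gate, scaling and cut were run.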

Additional observations from a re-analysis of the deposited data

How the results depend on the processing

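Of 274 values recomputed under 17 alternatives, 224 stayed within their interval or, for counts, within 1.5 times, 48 did not, and 2 changed direction. The cause was not tested. The ratio of microglia to oligodendrocytes in library 1 was 1.09 from cells of at least 500 UMIs and 250 genes and 1.13 in cells of 1000 to 3000 UMIs, where oligodendrocytes stood at 241 and 240.4 CPM. In cells of 1000 to 3000 UMIs library 2 microglia gave 735 CPM, a library ratio of 2.71, 36.5% of thinned cells with a UMI and a ratio of 5.37 between immediate early parts, and 2 members were highest in library 1 microglia. With at least 2000 UMIs, only neurons were left beside microglia in library 1. There, 2 members were called and 7 were highest in microglia, and 17.7% of cells had a UMI. With at least 500 UMIs 3 were highest. A mitochondrial limit of 20% gave library 2 microglia 1121 CPM, 48.3% of cells and 6 called members. The stricter gate left only endothelial cells beside microglia in library 2, with 13 called, a part ratio of 2.76, and 2 highest in library 1. A margin of 3 gave 2 highest and 24.2% of cells in library 1. Without the 5% deepest cells library 2 microglia stood at 1209.8 CPM, and without mitochondrial UMIs in the total at 1238 CPM, with endothelial cells at 357 CPM. With cells weighted equally, library 1 gave 283 CPM in oligodendrocytes, a ratio of 0.965 and 2 highest, and library 2 a part ratio of 3.37. Without Hist1h2bc, which had the most UMIs over all barcodes of both libraries, microglia stood at 213 and 977 CPM, oligodendrocytes at 231 and 210.2 CPM, endothelial cells at 241 CPM and mural cells at 274 CPM, with ratios of microglia to neurons of 1.5 and to oligodendrocytes of 0.924 in library 1, to oligodendrocytes of 4.65 and to endothelial cells of 4.06 in library 2, and a part ratio of 3.51. Without Hist1h1d, library 2 microglia gave 1031 CPM, 3.16 times endothelial cells, a part ratio of 2.7 and a library ratio of 3.86. A fold of 2 called 6 members in library 2, at least 50 UMIs left 15 highest, unthinned shares were 43.4% and 90.3%, and cutting at the median gave a part ratio of 2.44. Leaving out the 19 shared barcodes moved none of 25 results. The margin of 3, the cells of 1000 to 3000 UMIs and the shared barcodes were chosen after seeing the data. No paired analysis was possible because the labels give no groups.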

Other observations

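Choroid plexus cells, which make the cerebrospinal fluid, were too few to be compared but had high histone levels in both libraries. The 28 cells of library 1 held 857 CPM (709 to 1027) and the 43 cells of library 2 held 1625 CPM (1504 to 1752). Hist1h2bc, named here after its values were seen, held 65.0% and 67.4% of these UMIs, at 557 CPM (439 to 697) and 1095 CPM (996 to 1201). H2B genes made up 70.9% (61.8 to 79.0) and 70.0% (66.3 to 73.4), which overlaps the shares of oligodendrocytes in the 2 libraries. With a mitochondrial limit of 20% there were 57 and 140 such cells, at 677 and 886 CPM. In these, Hist1h2bc held 62.0% and 63.9% of the histone UMIs. The 45 neurons of library 2 held 302 CPM (204 to 431) and its 23 astrocytes 534 CPM (413 to 679).

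As ratios of the 2 unassigned libraries, the summed histone level of microglia was 4.38 times (4.02 to 4.78) as high in library 2 as in library 1. The ratio was 97.7 for Hist1h1d (33.4 to 474, from 3 and 1560 UMIs), 18.0 for Hist1h1e (11.5 to 30.0), 6.48 for Hist1h1c (5.32 to 7.97) and 3.59 for Hist1h2bc (2.97 to 4.38). In microglia of 1000 to 3000 UMIs, the Hist1h1d levels of libraries 1 and 2 were 2.1 CPM (0.433 to 6.13) and 64.0 CPM (39.6 to 97.8). Over all gated microglia again, the ratio of library 2 to library 1 was 1.03 for Hist3h2a (0.865 to 1.24), 0.531 for Hist2h4 (0.30 to 0.984) and 0.443 for Hist3h2ba (0.281 to 0.716). Of the members with 0 UMIs in library 1, Hist1h4c was 5.33-fold and Hist1h3a 5.08-fold higher in library 2 when library 1 was set to 3 UMIs. The lower limits of their ratios were 4.24 and 4.03. The median log2 ratio was 1.26 over the 33 members with at least 20 UMIs, with members at 0 set to this floor, and -0.26 over 13412 genes. The members that passed did so mostly through library 2.

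The barcodes removed for high mitochondrial content held 23.4% of all histone UMIs of library 2, at 612 CPM (595 to 629), and 6.80% of those of library 1, at 289 CPM (255 to 326).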
